A study of Mus musculus with 100 samples.

Results

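T, Eomes, Mixl1, Mesp1, Gsc, Lhx1 and Evx1 are transcription factor genes of the primitive streak and of the mesoderm that leaves it. They were taken by name as a set of 7 genes and read in 37 mouse RNA-seq libraries that hold 23109 gene-level entries each; all 7 were found. For each gene the transcript with the most reads over the 37 libraries was used, which left 1 choice to make, between 2 Eomes transcripts. The one used held 27117 of the 53707 reads given for both, so the level of Eomes depends on this choice. The values are read counts, given as CPM, each library scaled by its total of gene-level reads, and differences between groups come from edgeR's quasi-likelihood test adjusted over all genes tested by the method of Benjamini and Hochberg. A gene was called where the adjusted p was under 0.05.

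The series title names the methyltransferase activities of MLL3 and MLL4, 2 histone methyltransferases that work at enhancers. All cultured cells were Mll3-/-. Flox cells were Mll3-/-;Mll4flox/flox and KI cells were Mll3-/-;Mll4KI/KI, the latter as clones 27 and 48; the labels do not spell out KI. Embryonic stem cells (ESCs, day 0) were grown in 2i and LIF, and embryoid bodies were sampled at day 4 and day 10 of hanging-drop and suspension culture without LIF, with 1 flox library and 2 KI libraries per day. In neural cultures, embryoid bodies received retinoic acid after day 4 and were sampled at day 8 (progenitors) and day 16 (neurons), with 2 libraries per genotype and day. Trophectoderm cultures came from cells with doxycycline-inducible, virally delivered CDX2, grown for 6 days with FGF4, heparin and doxycycline. Extraembryonic endoderm cultures had 5 days of retinoic acid and activin A. Both had 2 libraries per genotype. Embryos, taken whole at stages E8.5 and E9.5, were Mll3flox/KI;Mll4flox/KI;Sox2-Cre (KI) or Mll3flox/KI;Mll4flox/+;Sox2-Cre (control), with 3 libraries per genotype and stage, so both genotypes carried Sox2-Cre, which acts in the epiblast, and the same Mll3 alleles.

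The primitive streak is the site at which epiblast cells leave the surface layer at gastrulation and become mesoderm and definitive endoderm. WNT3 and NODAL signals switch on the T-box factors T (brachyury) and Eomes there. Mixl1 and Gsc are homeobox genes of the streak, Gsc mainly of its anterior end, and Evx1 is a homeobox gene of the posterior streak. Mesp1 encodes a basic helix-loop-helix factor of the first mesoderm to leave the streak, the source of heart and cranial mesoderm. Lhx1, a LIM homeobox gene, acts in the anterior mesendoderm and later in intermediate mesoderm, kidney and classes of spinal cord neurons. Several of these genes have a later life outside the streak: T in notochord and tail bud, Evx1 in tail bud and spinal interneurons, and Eomes in trophoblast and cortex. ESCs made into embryoid bodies pass through a streak-like phase, during which such genes come on for a short time.

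The 250 bases upstream of the RefSeq gene start are shown for T, Mesp1 and Lhx1: T had the highest deposited RPKM of the 7 genes at day 4 in both genotypes, and Mesp1 and Lhx1 were the 2 that were lower in KI than in flox at that stage. The sequences are on the gene's strand in RefSeq build GRCm38.p6, at chr17:8434173-8434422 (plus strand) for T, chr7:79793591-79793840 (minus) for Mesp1 and chr11:84525535-84525784 (minus) for Lhx1. Capitals mark TCAAAG or its reverse complement CTTTGA, the core of the motif bound by TCF and LEF, the factors at the end of the WNT pathway.
T: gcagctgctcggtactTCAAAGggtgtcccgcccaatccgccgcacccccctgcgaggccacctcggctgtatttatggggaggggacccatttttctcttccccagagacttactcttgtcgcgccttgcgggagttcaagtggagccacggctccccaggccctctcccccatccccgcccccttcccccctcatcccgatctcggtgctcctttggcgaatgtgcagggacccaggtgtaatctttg
Mesp1: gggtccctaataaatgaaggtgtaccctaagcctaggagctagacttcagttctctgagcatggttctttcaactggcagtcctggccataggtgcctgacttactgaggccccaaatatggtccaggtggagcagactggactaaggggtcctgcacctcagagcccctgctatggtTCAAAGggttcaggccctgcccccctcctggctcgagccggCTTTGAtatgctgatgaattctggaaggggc
Lhx1: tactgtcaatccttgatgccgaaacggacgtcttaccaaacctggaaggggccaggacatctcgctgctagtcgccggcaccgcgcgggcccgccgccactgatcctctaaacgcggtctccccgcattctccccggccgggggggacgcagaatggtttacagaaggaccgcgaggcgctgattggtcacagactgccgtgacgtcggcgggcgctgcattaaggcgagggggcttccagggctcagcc
The T window held the motif once, 234 to 229 bases upstream of the start. The Mesp1 window held it in both orientations, 72 to 67 and 31 to 26 bases upstream, and the Lhx1 window did not hold it. On either strand, 13.8% of 32851 RefSeq windows of this length held the motif, and 2 of the 6 genes found in the table did (Mixl1 was not matched). A T-box half-site, TCACACC, was in none of the 6 and in 3.33% of all windows. The FOXH1 motif AATNCACA, bound by the NODAL pathway's DNA-binding cofactor, was also in none of the 6 and in 3.18% of all. TATAAA was in the Gsc window alone, 164 to 159 bases upstream, and in 12.4% of all windows. No match overlapped another. These matches describe letters in a short window; binding was not measured there. The T and Lhx1 windows were rich in G and C (62.8% and 64.8%, against a median of 52.4% over all windows), with 55.2% in Mesp1.

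Gene-level depth was 18908148 to 59880727 reads per library, so 3 reads, the limit that a count of 0 allows, corresponded to 0.05 to 0.16 CPM. These limits cover counting error only. For the cultures, nothing in the labels says that libraries of 1 group came from separate cultures beyond the 2 clones, so p-values measure the spread between these samples, which may be technical. Each embryo library has its own number in the title, which reads as that of a separate embryo, although the labels do not explain it. Kmt2c (Mll3) was at 27.6 to 99.4 CPM and Kmt2d (Mll4) at 148.7 to 333.6 CPM in all 37 libraries, so these counts do not check the genotype labels. The 2 flox libraries at neural day 8 differed by little more than sampling noise (a chi-square of 1.5 for each degree of freedom, while all other pairs of libraries had 2.76 to 54.83) and were kept as 2 libraries. Evx1 shares 1335 bases with Evx1os, and the libraries do not mark strand, so reads of this gene and its antisense partner cannot be told apart. T and Eomes overlap annotated genes that were not counted, by 106 and 547 bases.

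All 7 genes rose from ESCs to day 4 of embryoid body culture in both genotypes and fell again by day 10. T drives mesoderm formation and the movement of cells out of the streak. It was at 27.9 CPM in flox ESCs and at 24.65 and 10.47 CPM in KI clones 27 and 48. At day 4 it was at 489.1 CPM in flox and 286.8 and 312.5 CPM in KI, and at day 10 at 4.42 CPM in flox and 1.18 and 1.13 CPM in KI. Each genotype's day 4 libraries lay above all its others, and the day 10 libraries lay below those of day 0. The fitted rise from day 0 to day 4 was 15-fold in flox (log2 3.91 ± 0.55 SE, edgeR adjusted p = 0.00311) and 16-fold in KI (log2 4.00 ± 0.39, adjusted p = 0.000724). The call in flox was lost when 1 of the 2 KI day 10 libraries was left out (adjusted p = 0.0573 without clone 27 and 0.0562 without clone 48). In bulk samples like these, fewer cells of a type and less RNA per cell cannot be told apart.

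Eomes, the T-box partner of T that acts in mesoderm and endoderm progenitors, was at 17.0 CPM in flox ESCs and 12.4 and 15.5 CPM in KI. It reached 289.9 CPM at day 4 in flox and 305.6 and 350.8 CPM in KI, and was at 3.22 CPM in flox and 16.5 and 13.7 CPM in KI at day 10. The 2 genotypes were close at day 0 and day 4 and separate at day 10. Mixl1 was at 0.264 CPM in flox ESCs and 0.849 and 1.35 CPM in KI, at 125.2 CPM in flox and 87.9 and 93.9 CPM in KI at day 4, and at 0.194 CPM in flox and 0.614 and 1.29 CPM in KI at day 10. In both genotypes the Mixl1 level at day 4 stood far above those of day 0 and day 10. The flox levels of Mixl1 at day 0 and day 10 rest on 5 reads each.

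Gsc, a target of NODAL signalling, was at 1.11 CPM in flox ESCs and 2.16 and 1.93 CPM in KI. It was at 23.4 CPM in flox and 19.8 and 22.6 CPM in KI at day 4, and at 0.698 CPM in flox and 0.205 and 0.167 CPM in KI at day 10. Evx1 was at 4.65 CPM in flox ESCs and 8.87 and 3.49 CPM in KI, at 90.5 CPM in flox and 71.6 and 76.0 CPM in KI at day 4, and at 1.90 CPM in flox and 17.5 and 14.8 CPM in KI at day 10. Evx1 in KI was thus the gene that had lost least of its day 4 level by day 10.

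Mesp1 and Lhx1 were near 0 in ESCs: Mesp1 had no read in flox and 2 and 1 reads in KI, and Lhx1 had no read in flox, 2 reads in KI clone 27 and none in clone 48. At day 4, Mesp1 was at 38.9 CPM in flox and 6.67 and 7.74 CPM in KI, and Lhx1 at 127.6 CPM in flox and 47.4 and 52.4 CPM in KI. At day 10, Mesp1 had returned to 0.233 CPM in flox and 0.153 and 0.0833 CPM in KI, while Lhx1 was at 2.09 CPM in flox and 1.84 and 1.33 CPM in KI. For both genes the day 4 KI libraries lay close together and well below the flox library.

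In the test of day 4 against day 0, 7 of 7 genes were called higher in KI, where 25% of all genes tested were called higher, and 7 of 7 in flox, where 24% were. The KI rises were 22-fold for Eomes (adjusted p = 2.69e-06), 77-fold for Mixl1 (adjusted p = 5.16e-06), 9.64-fold for Gsc (adjusted p = 1.21e-05) and 11.2-fold for Evx1 (adjusted p = 0.000823). For the 2 genes near 0 in ESCs, the read ratio in KI was 114 (95% counting interval 38.6 to 555) for Mesp1 and 1.18e+03 (327 to 9.76e+03) for Lhx1. In flox, against 3 reads in place of 0, Mesp1 was at least 245-fold and Lhx1 at least 804-fold higher at day 4.

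From day 4 to day 10, 7 of 7 genes were called lower in both genotypes, where 35.1% of all genes were called lower in KI and 27.6% in flox. The rise and the fall share the day 4 libraries, so they are not independent of each other. In KI, T fell 276-fold (log2 -8.11 ± 0.52, edgeR adjusted p = 6.72e-05), Mixl1 98-fold and Eomes 23.2-fold. Evx1 in KI fell 4.86-fold (log2 -2.28 ± 0.35, adjusted p = 0.00177), and that call was lost without KI clone 48 at day 10 (adjusted p = 0.0567). In flox the log2 changes ran from -5.11 for Gsc to -9.35 for Mixl1. Markers of other cells moved with this fall, in a test that called 70.6% of all genes in KI and 52.7% in flox. Of 12 pluripotent cell markers 10 were called lower in KI and 9 in flox, and 1 was called higher in each, with day 10 sums of 191.2 to 254.3 CPM in KI and 141.7 CPM in flox. Of 13 extraembryonic endoderm markers 12 were called higher and none lower in KI, and 7 higher and 2 lower (Foxa2 and Cer1) in flox. Their part in the fall was not tested.

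**Figure D1:**
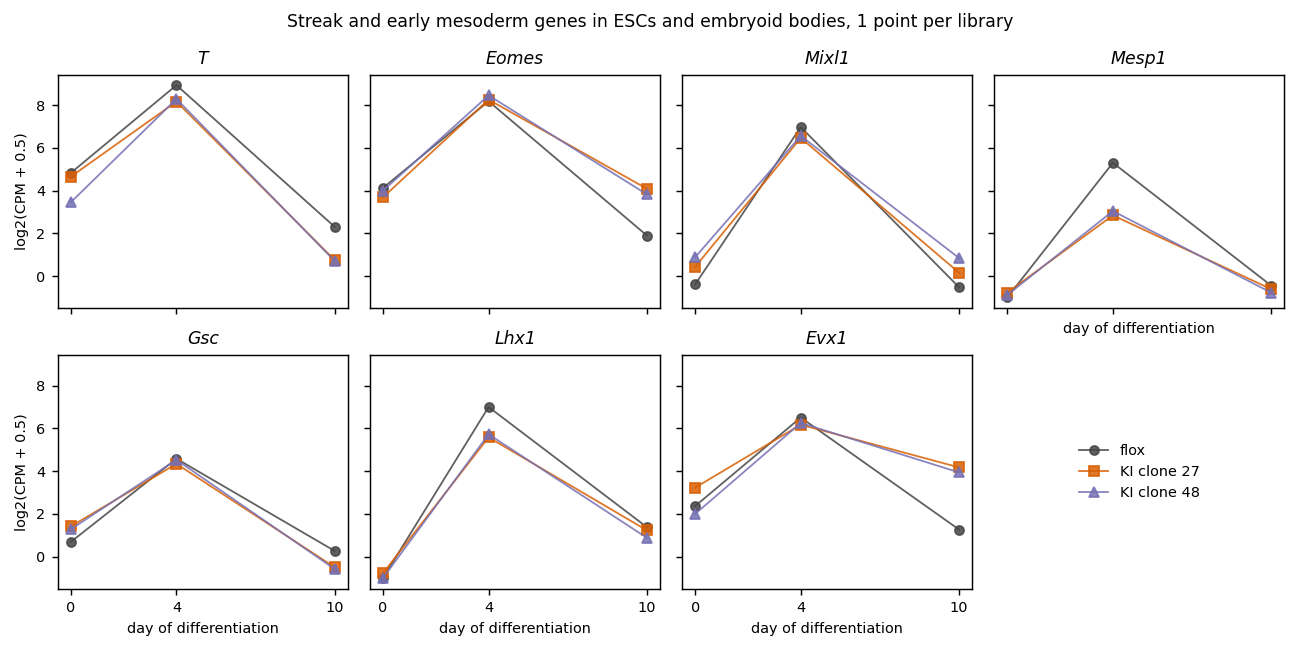
Level of each gene as log2(CPM + 0.5) against day of differentiation (0, 4 and 10), with 1 point per library and lines joining flox, KI clone 27 and KI clone 48. All 7 genes peak at day 4 in every line, Mesp1 and Lhx1 peak lower in both KI clones, and Eomes and Evx1 end higher in both KI clones at day 10.

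Levels of different genes were compared on the deposited RPKM, which scale the reads to transcript length and depth. In the flox day 4 library the order of levels was T (172 RPKM), Eomes (56.1), Mixl1 (39.3), Lhx1 (33.3), Mesp1 (26.0), Evx1 (22.6) and Gsc (14.4). In KI at day 4 the order was T (106 ± 6.64 RPKM, mean ± SD, n = 2), Eomes (63.8 ± 6.33), Mixl1 (28.7 ± 1.40), Evx1 (18.5 ± 0.806), Lhx1 (13.1 ± 0.958), Gsc (13.0 ± 1.24) and Mesp1 (4.83 ± 0.515). Lhx1 and Gsc could not be ordered in KI, since their libraries overlap. The place of Eomes rests on 1 of its 2 transcripts. Mesp1 thus stood in the fifth place in flox and last in KI.

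Across all 37 libraries the highest CPM of T, Mixl1, Mesp1, Gsc and Evx1 was in the flox day 4 library, that of Eomes in KI clone 48 at day 4, and that of Lhx1 in a neural day 8 flox library (181.7 CPM). Lhx1 was at 1 CPM or more in 28 libraries, T and Evx1 in 25 each, Eomes in 18, Mixl1 and Gsc in 14 each, and Mesp1 in 4. Mesp1 thus reached this level in the fewest libraries, the 3 of embryoid body day 4 and a single control embryo library.

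**Figure D2:**
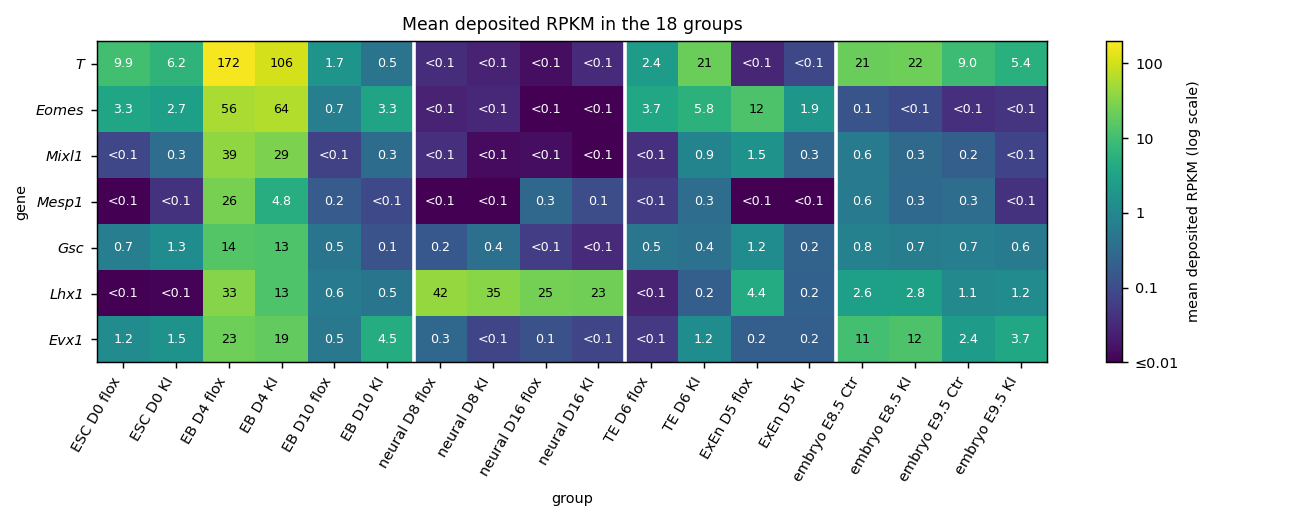
Mean deposited RPKM of the 7 genes (rows) in the 18 groups (columns) on a logarithmic colour scale, with the rounded value in each cell and white lines between the kinds of culture and the embryos. Day 4 embryoid bodies hold the highest mean of all genes except Lhx1, whose highest means are in neural day 8 cultures.

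At day 4, Mesp1 and Lhx1 were lower in KI than in flox and the other 5 genes were not called. That is 2 of 7 genes called lower, where 5.05% of all genes tested were called lower and 7.7% were called in either direction. Mesp1 was 5.28-fold lower (log2 -2.40 ± 0.24, edgeR adjusted p = 0.00236) and Lhx1 2.5-fold lower (log2 -1.32 ± 0.18, adjusted p = 0.00768). With 1 flox library at each day, its spread is assumed to equal that of the KI clones. Both calls were lost with 1 KI library at day 4: Mesp1 had an adjusted p of 0.057 without clone 27 and 0.0549 without clone 48, and Lhx1 of 0.124 and 0.113.

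For the other 5 genes the day 4 difference missed the threshold. T had a log2 difference of -0.68 ± 0.41 (adjusted p = 0.399), Eomes of 0.21 ± 0.17 (adjusted p = 0.51), Mixl1 of -0.43 ± 0.21 (adjusted p = 0.273), Gsc of -0.11 ± 0.20 (adjusted p = 0.786) and Evx1 of -0.26 ± 0.39 (adjusted p = 0.753). T became called lower without either KI library of day 0 (adjusted p = 0.0354 in each case), and Mixl1 without KI clone 27 or 48 of day 10 (adjusted p = 0.00542 and 0.00526). The median log2 difference of the 7 genes was -0.43, against 0.00 over all genes.

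Several genes of mesoderm that has just left the streak were also lower in KI at day 4. Of 14 nascent mesoderm genes, 7 were called lower and none higher in edgeR, with a median log2 difference of -1.47. Hand1, a factor of lateral and extraembryonic mesoderm, was at 71.2 CPM in flox and 2.66 ± 0.271 CPM in KI (SD, n = 2; log2 -4.71, edgeR adjusted p = 0.000547). Kdr, the VEGF receptor of blood and vessel progenitors, was at 218.2 CPM in flox and 22.3 ± 3.21 CPM in KI (log2 -3.26, adjusted p = 0.000534). Foxf1, also of lateral mesoderm, was at log2 -4.61 (adjusted p = 0.00198), and Msgn1, a factor of presomitic mesoderm, at log2 -3.55 (adjusted p = 0.00449). Tbx6, Snai1 and Pdgfra were the other 3 called lower. The summed level of the list was 679.4 CPM in flox and 171.5 to 187.9 CPM in KI.

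Of 12 genes for streak signals and their cofactors, 3 were called lower at day 4 and 2 higher, with a median log2 difference of 0.07. Wnt3a (log2 -2.08, edgeR adjusted p = 0.0491), Wnt8a (log2 -1.81, adjusted p = 0.0117) and Bmp4 (log2 -1.73, adjusted p = 0.0236) were lower, and Gdf3, a partner of NODAL, was higher (log2 0.95, adjusted p = 0.00519). Fgf4 was the other gene called higher. Nodal and Wnt3, the first signals of the streak, were at 102.0 and 85.1 CPM in flox and at 104.9 ± 0.598 and 87.0 ± 3.13 CPM in KI (SD, n = 2).

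Markers of other cells moved with these differences. Of 12 pluripotent cell markers, 6 were called higher in KI at day 4, where 2.66% of all genes were, and none lower, and their summed level was 1937.6 CPM in flox and 3246.0 to 3379.8 CPM in KI (at day 0, 5776.4 CPM in flox and 5096.2 to 5429.6 CPM in KI). Of 6 node and notochord markers, 4 were called lower (Shh, Chrd, Foxa2 and Nog), and the sum was 80.5 CPM in flox and 31.8 to 33.8 CPM in KI. Of 13 extraembryonic endoderm markers, which include genes shared with definitive endoderm, 3 were called lower (Gata4, Foxa2 and Cer1), with sums of 212.7 CPM in flox and 109.8 to 117.0 CPM in KI; Afp was at 0 reads in flox. Of 9 trophoblast markers tested, 3 were called lower (Krt8, Krt18 and Hand1, genes that mesoderm or other epithelia also express), with sums of 1970.4 CPM in flox and 486.2 to 600.2 CPM in KI; Tpbpa was at 0 reads in both and Elf5 in flox. Of 6 intermediate mesoderm markers, the later site of Lhx1, 2 were called lower, and of 9 neuron markers 1. Whether these cells have a part in the differences of Mesp1 and Lhx1 was not tested.

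**Figure D3:**
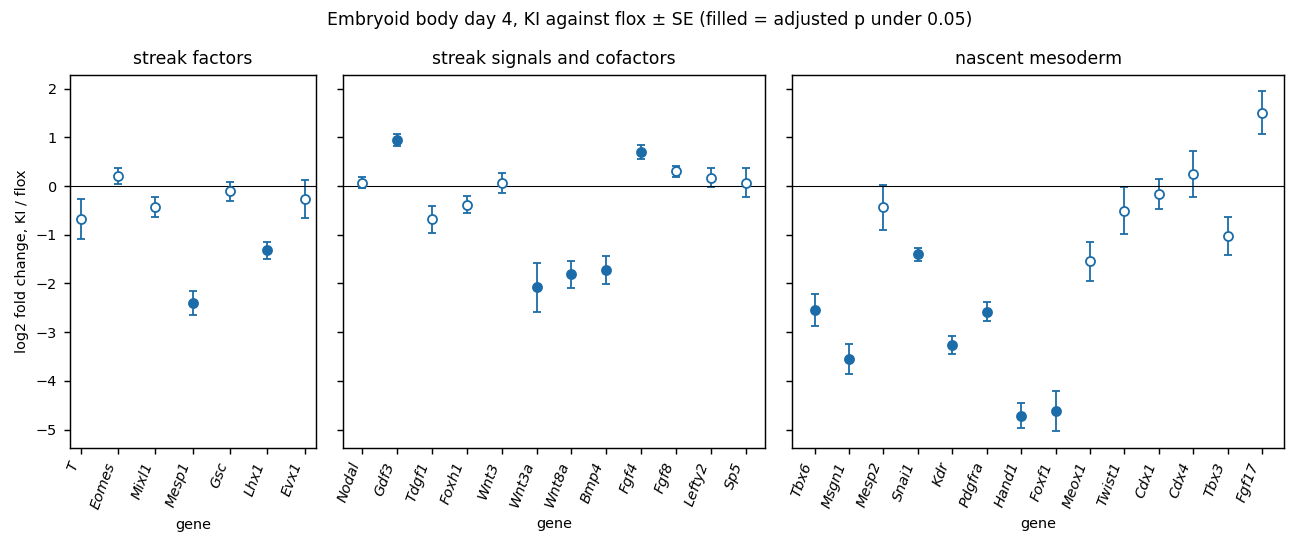
Log2 fold change of KI over flox at embryoid body day 4, with bars of 1 SE from the edgeR fit, for the 7 streak factors, 12 streak signals and cofactors and 14 nascent mesoderm genes; filled points have an adjusted p under 0.05. Filled points below 0 are Mesp1 and Lhx1 in the first panel, Wnt3a, Wnt8a and Bmp4 in the second, and 7 genes in the third.

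In ESCs, before differentiation, none of the 5 genes with enough reads was called between KI and flox by edgeR, where 11.9% of all genes were called. At an unadjusted p under 0.05, Mixl1 and Gsc passed, and DESeq2 called none. Mixl1 was at log2 1.94 ± 0.67 (adjusted p = 0.113), Gsc at 0.79 ± 0.27 (adjusted p = 0.111), T at -0.77 ± 0.44 (adjusted p = 0.341), Eomes at -0.38 ± 0.18 (adjusted p = 0.24) and Evx1 at 0.31 ± 0.53 (adjusted p = 0.769). The KI clones differed from each other in T and Evx1, with clone 27 above clone 48 in both. T was called lower without KI clone 27 at day 0 (adjusted p = 0.0133), and Mixl1 called higher without either KI day 10 library (adjusted p = 0.0125 without clone 27 and 0.0133 without clone 48). Mesp1 and Lhx1 had 3 reads or fewer in both genotypes and get no fold.

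At day 10, Eomes and Evx1 were higher in KI than in flox and Gsc was lower: 3 of 7 genes, where 10.5% of all genes were called. Eomes was 4.66-fold higher (log2 2.22 ± 0.22, edgeR adjusted p = 0.00245), in both clones. Evx1 was 8.47-fold higher (log2 3.08 ± 0.57, adjusted p = 0.0285), and Gsc 3.71-fold lower (log2 -1.89 ± 0.38, adjusted p = 0.0233). Gsc was near the detection limit, with 4 reads in each KI library and 18 in flox.

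The Eomes call held in each setting tried, and those of Evx1 and Gsc did not. Evx1 was at an adjusted p of 0.0577 with no filter on low counts, 0.153 and 0.129 without day 10 clones 27 and 48, and 0.0618 and 0.0639 without day 4 clones 27 and 48. Gsc was at 0.0583 in DESeq2, and at 0.0664 and 0.0686 without day 4 clones 27 and 48. T and Mixl1 crossed the threshold the other way. T (log2 -1.94 ± 0.66, edgeR adjusted p = 0.139) was called lower in DESeq2 (0.0292) and without ESC clone 27 or 48 (0.007 and 0.00705). Mixl1 (log2 2.30 ± 0.66, adjusted p = 0.0747) was called higher in DESeq2 (0.0188), with the clones as a replicate block (0.0471) and without day 10 clone 27 (0.00231). Mesp1 (log2 -0.98 ± 0.59, adjusted p = 0.474) and Lhx1 (log2 -0.42 ± 0.31, adjusted p = 0.443) were not called.

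Among streak signals at day 10, Wnt3 was at 2.33 CPM in flox and 13.4 ± 2.39 CPM in KI (SD, n = 2; log2 2.52, edgeR adjusted p = 0.00417). Wnt3a went the other way, at 1.59 CPM in flox and 0.0511 ± 0.0723 CPM in KI (adjusted p = 0.0122), as did Fgf8, a signal of the streak and tail bud (3.03 CPM in flox and 0.944 ± 0.0391 CPM in KI, adjusted p = 0.0037). Gdf3 (log2 1.98, adjusted p = 0.016) and Nodal were called higher, which makes 3 higher and 2 lower of 12. Of the 14 nascent mesoderm genes, Tbx3 was called higher and Snai1 lower. The nascent mesoderm sum was 758.3 CPM in flox and 741.7 to 990.9 CPM in KI. Of all genes, 5.49% were called higher at day 10 and 4.96% lower. Extraembryonic endoderm markers moved with Eomes and Evx1: 7 of 13 were called higher in KI (Amn at log2 3.95, adjusted p = 0.0047), and the sum was 887.1 CPM in flox and 1286.5 to 1472.4 CPM in KI, with Cer1 at 0 reads in KI. Of 9 trophoblast markers tested Cdx2 was called higher and none lower, with sums of 754.6 CPM in flox and 1155.3 to 1789.2 CPM in KI and Tpbpa at 0 reads in all 3 libraries. In the interaction test of the change from day 4 to day 10, 4 of the 9 (Cdx2, Krt8, Krt18 and Hand1) had a more positive change in KI than in flox, where 7.45% of all genes were called in either direction; in flox alone Cdx2 and Krt8 fell, and in KI Krt8, Krt18 and Hand1 rose and Cdx2 was not called. The part of such cells in the day 10 differences was not tested.

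The change of the KI effect between days was tested as an interaction. From day 4 to day 10 it differed in Eomes (log2 2.01 ± 0.27, edgeR adjusted p = 0.0101) and Evx1 (log2 3.35 ± 0.69, adjusted p = 0.0465), so 2 of 7 genes were called, where 7.45% of all genes were. The Eomes call was lost without day 4 clone 27 (0.057) or 48 (0.0634), and that of Evx1 when any 1 of the 4 KI libraries of these days was left out (0.129 to 0.167) and with no filter on low counts (0.0882). Mixl1 (log2 2.73 ± 0.68, adjusted p = 0.0628) was called in DESeq2 (0.00747), with the replicate block (0.0401) and without day 10 clone 27 (0.000961) or 48 (0.0413). Gsc was at log2 -1.78 ± 0.43 (0.0509), and was called without day 10 clone 27 (0.0385) or the flox ESC library (0.0488). T (-1.26, 0.408), Mesp1 (1.42, 0.351) and Lhx1 (0.91, 0.183) were not called, although T was called without ESC clone 27 (0.0381) or 48 (0.0385) and Lhx1 without day 10 clone 48 (0.0309).

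From day 0 to day 4 none of the 5 testable genes had a called difference between genotypes in edgeR, where 6.86% of all genes did. At an unadjusted p under 0.05, Eomes, Mixl1 and Gsc passed. Mixl1 had a log2 difference of -2.37 ± 0.69 (adjusted p = 0.0927), was called in DESeq2 (0.0236) and was called without day 10 clone 27 (0.00464) or 48 (0.00504). Averaged over the 3 days in an additive fit, no gene of the 7 was called in edgeR, where 0.73% of all genes were. T (log2 -1.01 ± 0.29, adjusted p = 0.167), Mesp1 (-1.84 ± 0.47, 0.13) and Lhx1 (-0.94 ± 0.28, 0.173) passed an unadjusted p under 0.05, DESeq2 called T (0.0126), and Mesp1 was called without the flox ESC library (0.0247).

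In neural cultures Lhx1 was the one abundant gene of the set, and most of the others were near the detection limit. Lhx1 was at 178.9 and 181.7 CPM in flox and 159.7 and 134.8 CPM in KI at day 8, and at 88.7 and 98.7 CPM in flox and 86.4 and 92.4 CPM in KI at day 16. The genotypes did not overlap at day 8 and overlapped at day 16, and day 8 lay above day 16 in both. Neither difference between genotypes was called (log2 -0.26 ± 0.10, edgeR adjusted p = 0.113 at day 8 and 0.14, adjusted p = 0.305 at day 16). At day 16 the sign depends on the scaling: scaled by total reads the KI mean was below that of flox (89.4 and 93.7 CPM), and scaled by TMM it was above. Lhx1 fell from day 8 to day 16 by 0.91 ± 0.11 on the log2 scale in flox (adjusted p = 5.54e-06) and by 0.51 ± 0.10 in KI (adjusted p = 0.000629).

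Evx1 and Gsc were called between genotypes at neural day 8, 2 of the 4 genes with a fold, where 19.5% of all genes were called. Evx1, which also marks a class of spinal interneurons, was at 1.14 and 1.29 CPM in flox and 0.436 and 0.266 CPM in KI (log2 -1.77 ± 0.41, edgeR adjusted p = 0.00892). Gsc was at 0.278 and 0.274 CPM in flox and 0.804 and 0.594 CPM in KI (log2 1.36 ± 0.34, adjusted p = 0.0136). The 2 genotypes did not overlap in either gene, but both levels were low. The Evx1 call was lost without flox 2 (log2 -1.67, adjusted p = 0.05) or KI clone 48 (-1.45, 0.123), and the Gsc call in DESeq2 (1.41, 0.192) and without flox 1 (1.37, 0.0996), flox 2 (1.35, 0.125) or KI clone 27 (1.14, 0.102).

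At neural day 16 none of the 4 genes with a fold was called in edgeR or DESeq2, where 46.9% of all genes were called by edgeR. Mesp1 alone passed an unadjusted p under 0.05 (log2 -1.08 ± 0.47, adjusted p = 0.0787), with 17 and 19 reads in flox and 8 and 10 in KI. Between the days, all 5 genes with a fold were called in flox and 4 of 5 in KI, where 77.1% and 79.9% of all genes were called. Mesp1 was higher at day 16, with a read ratio of 36.1 (95% counting interval 6.08 to 1.46e+03) in flox and 14.6 (2.31 to 608) in KI. Its highest neural value was 0.487 CPM, far under its day 4 embryoid body values. Gsc fell in flox (log2 -1.47 ± 0.50, adjusted p = 0.0167) and in KI (log2 -3.46 ± 0.45, adjusted p = 1.47e-05), and so did Eomes, from 15 to 2 reads in flox (ratio 7.48, 1.74 to 67.4) and from 16 to 3 in KI (ratio 6.57, 1.88 to 35.2). Evx1 fell in flox (log2 -1.42 ± 0.39, adjusted p = 0.00565) and was at log2 0.07 in KI (adjusted p = 0.896), where the means scaled by total reads had the opposite sign (0.324 CPM at day 16 and 0.351 CPM at day 8).

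Several of these calls were lost in other settings, with the direction kept. The flox change of Gsc missed the threshold in DESeq2 (log2 -1.47, adjusted p = 0.112) and without flox 1 of day 16 (-1.36, 0.0934), flox 1 of day 8 (-1.46, 0.0594) or flox 2 of day 8 (-1.47, 0.0655), so its size stayed close to the log2 of -1.47 given above. That of Evx1 missed it without flox 1 of day 16 (0.0997), with a smaller log2 change. For Eomes the call was lost in DESeq2 in both genotypes (0.0948 in flox and 0.094 in KI), in flox without flox 1 of day 16 (0.0954) or flox 2 of day 8 (0.168), and in KI without clone 27 of day 16 (0.0733) or day 8 (0.1). The genotype difference in the change between days was called in none of the 3 testable genes by edgeR or DESeq2, where 33.2% of all genes were called; Gsc, Lhx1 and Evx1 passed an unadjusted p under 0.05. With the replicate block Lhx1 (log2 0.40, adjusted p = 0.0366) and Evx1 (log2 1.44, adjusted p = 0.0329) were called. Lhx1 was also called with no filter (0.0464) and without clone 27 of day 16 (0.0483) or day 8 (0.0312) or flox 2 of day 16 (0.0361), and Evx1 without clone 48 of day 16 (0.0221).

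Markers of other cells also differed between genotypes in the neural cultures, with 6.3% of the genes tested higher and 13.2% lower in KI at day 8, against 27.1% and 19.7% at day 16. Of neuron markers, 6 of 9 were called lower in KI at day 8, and 8 higher and 1 lower at day 16, with day 16 sums of 3511.6 to 3860.2 CPM in flox and 5406.4 to 5925.7 CPM in KI. At day 8, 8 of 11 extraembryonic endoderm markers tested were called lower in KI (118.1 to 118.5 CPM in flox and 38.2 to 40.8 CPM in KI), and 3 of 5 node and notochord markers higher (21.6 CPM in both flox libraries and 29.7 to 30.6 CPM in KI). Of 11 nascent mesoderm genes tested, 5 were called lower and 1 higher at day 8 (sums of 153.4 to 154.9 CPM in flox and 104.8 to 121.1 CPM in KI), and 6 lower at day 16 (145.9 to 148.0 and 49.4 to 61.5 CPM), with Msgn1 and Cdx4 at 0 reads in all 8 libraries. Of 6 intermediate mesoderm markers, a later site of Lhx1, 3 were called lower on both days (Osr1, Wt1 and Emx2), 2 higher at day 8 and 1 at day 16, with sums of 180.2 to 181.4 CPM in flox and 105.0 to 143.5 CPM in KI at day 8 and of 235.4 to 238.2 and 107.8 to 109.6 CPM at day 16. From day 8 to day 16, 77.1% of all genes were called in either direction in flox and 79.9% in KI. Of the 9 neuron markers 7 were called higher and 2 lower in each genotype. Of the 11 extraembryonic endoderm markers 8 were called lower in flox and 7 in KI, and 1 higher in each. The part of these cells in the values of Lhx1, Evx1 and Gsc was not tested.

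In the trophectoderm cultures 5 of the 6 genes tested were higher in KI than in flox, where 26.7% of all genes were called higher. T was at 4.69 and 8.29 CPM in flox and 34.4 and 77.8 CPM in KI (8.77-fold, log2 3.13 ± 0.48, edgeR adjusted p = 0.00315). Evx1 was at 0.206 and 0.192 CPM in flox and 2.80 and 6.35 CPM in KI (22.9-fold, log2 4.51 ± 0.57, adjusted p = 1.4e-05). Mixl1 was at 0 and 0.230 CPM in flox and 1.74 and 3.45 CPM in KI (log2 4.42 ± 0.69, adjusted p = 0.000102). KI clone 48 was above clone 27 in all 3, and both clones were above both flox libraries.

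Eomes, which is itself a trophoblast gene, was at 17.7 and 18.9 CPM in flox and 22.1 and 33.4 CPM in KI (1.55-fold, log2 0.63 ± 0.16, edgeR adjusted p = 0.00442). Lhx1 was at 2 and 3 reads in flox and 14 and 25 reads in KI (6.96-fold, log2 2.80 ± 0.56, adjusted p = 0.000837), and Gsc at 0.905 and 0.614 CPM in flox and 0.291 and 0.944 CPM in KI (log2 -0.27 ± 0.66, adjusted p = 0.76). The genotypes were separate in Eomes and Lhx1 and overlapped in Gsc. T was not called when only the trophectoderm libraries were fitted (0.0715), nor Eomes without flox 1 (0.0569) or KI clone 48 (0.0639). Mesp1 had 2 reads in each flox library and 6 and 20 in KI and did not pass the filter. Among markers, 8 of 10 tested trophoblast genes were called higher in KI and 1 lower, with sums of 3223.8 to 3298.4 CPM in flox and 5509.7 to 5732.9 CPM in KI and Tpbpa at 0 reads in flox. Cdx2 was among the 8 and in the sums, and its reads may include those of the introduced Cdx2, which was not tested. Of 12 pluripotent markers 10 were called lower, where 24.2% of all genes were (1533.2 to 1587.5 CPM in flox and 632.7 to 739.1 CPM in KI). Of the nascent mesoderm genes 5 of 14 were called higher and none lower. Of 11 streak signals and cofactors tested, 6 were called lower (Nodal, Gdf3, Foxh1, Wnt8a, Bmp4 and Fgf4) and Sp5 higher, with sums of 402.0 to 404.0 CPM in flox and 174.5 to 328.3 CPM in KI. What part these cells have in T and Evx1 was not tested.

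In the extraembryonic endoderm cultures 4 of 6 genes were lower in KI than in flox, where 17.4% of all genes were called lower. Eomes, also a gene of endoderm progenitors, was at 57.4 and 58.6 CPM in flox and 8.255 and 9.495 CPM in KI (6.68-fold lower, log2 -2.74 ± 0.17, edgeR adjusted p = 1.13e-07). Lhx1, a gene of anterior visceral endoderm, was at 16.03 and 14.81 CPM in flox and 0.657 and 0.859 CPM in KI (20.7-fold lower, log2 -4.37 ± 0.32, adjusted p = 1.45e-07). Mixl1 was at 4.02 and 4.85 CPM in flox and 0.704 and 0.808 CPM in KI (5.96-fold lower, adjusted p = 0.00166). In these 3 the libraries of each genotype lay close together and far from the other genotype.

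Gsc was at 1.11 and 2.55 CPM in flox and 0.281 and 0.404 CPM in KI (log2 -2.43 ± 0.71, edgeR adjusted p = 0.0153), and was not called without flox 2 (0.204) or KI clone 27 (0.0879). Evx1 was not called (log2 -0.05, adjusted p = 0.958), T had 3 reads in flox and 9 in KI over the 2 libraries of each (ratio 2.93, 95% counting interval 0.732 to 16.9; small counts here are mostly even numbers, and if both reads of a pair were counted, which was not tested, such intervals are too narrow), and Mesp1 had no read in the 4 libraries. Extraembryonic endoderm markers were lower in KI in 12 of 12 tested, with sums of 1390.0 to 1416.7 CPM in flox and 235.8 to 240.0 CPM in KI and Ttr, Apoa1 and Cer1 at 0 reads in KI. Of 10 trophoblast markers tested 7 were called higher, where 18.1% of all genes were, and 1 lower, with sums of 3067.9 to 3078.0 CPM in flox and 3880.0 to 4600.0 CPM in KI. Of 12 pluripotent cell and epiblast markers 6 were called lower and 3 higher, with sums of 322.8 to 335.9 CPM in flox and 139.6 to 158.9 CPM in KI; Otx2, a gene of epiblast and anterior visceral endoderm, was at log2 -5.49 (edgeR adjusted p = 4.94e-07). Of 11 streak signals and cofactors tested Nodal, Foxh1 and Fgf8 were called lower and none higher (148.3 to 156.7 CPM in flox and 111.4 to 129.3 CPM in KI). Of the intermediate mesoderm markers, Wt1 was called lower (17.8 ± 1.09 CPM in flox and 7.64 ± 1.91 CPM in KI, SD, n = 2 each; log2 -1.26, edgeR adjusted p = 9.26e-05), and Pax8 was at 0 reads in KI. The part of a change in these cells in the lower Eomes, Lhx1 and Mixl1 was not tested.

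The KI effect differed between trophectoderm and extraembryonic endoderm cultures in 4 of 6 genes, where 35.3% of all genes had such a difference. The log2 differences were 3.37 ± 0.23 for Eomes (edgeR adjusted p = 3.6e-07), 6.99 ± 0.87 for Mixl1 (adjusted p = 2.98e-05), 7.17 ± 0.62 for Lhx1 (adjusted p = 9.52e-07) and 4.57 ± 0.82 for Evx1 (adjusted p = 0.000627). T (1.67, adjusted p = 0.732) and Gsc (2.17, adjusted p = 0.102) had none that was called, although Gsc was called without KI clone 27 of the trophectoderm (0.0348). The flox trophectoderm libraries held few reads of Mixl1 (0 and 6), Lhx1 (2 and 3) and Evx1 (5 and 5), so the size of their differences is uncertain. Flox cells of the 2 cultures also differed from each other, in 5 of 6 genes where 64.7% of all genes were called. Eomes (log2 -1.76), Mixl1 (-5.25) and Lhx1 (-7.29) were lower in trophectoderm, and T was higher, with a read ratio of 87.9 (29.8 to 428, under the same limit). Evx1 was lower (log2 -1.92, adjusted p = 0.0204), a call lost when any 1 of the 4 flox libraries was left out (0.0594 to 0.0851). Gsc was called when only the flox libraries were fitted (0.013), without KI clone 27 of trophectoderm (0.043) and without clone 48 (0.0493). In KI cells 4 of 6 genes were called, where 63.1% of all genes were, and Eomes (log2 1.61) and Mixl1 (1.74, lost without KI clone 48 of trophectoderm at 0.103) were then higher in trophectoderm, as were T (7.93) and Evx1 (2.65). Of 12 extraembryonic endoderm markers tested, 12 were called lower in trophectoderm in flox and 9 in KI, with none higher. Of 12 pluripotent cell markers 10 were called higher and 2 lower in each genotype. The part of such cells in these differences was not tested.

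In whole embryos no gene of the 7 was called between KI and control at E8.5, where 5.46% of all genes were called by edgeR; none passed an unadjusted p under 0.05 and DESeq2 called none. With the replicate block 1304 genes were called in place of 843, none of the 7 among them. T, then in notochord and tail bud, was at 70.4, 56.4 and 41.6 CPM in control embryos and 59.9, 64.7 and 48.8 CPM in KI embryos (log2 0.05). Evx1 was at 46.2, 38.0 and 34.2 CPM in controls and 42.3, 49.3 and 45.6 CPM in KI (log2 0.22 ± 0.19, adjusted p = 0.589). Lhx1 was at 9.31, 10.8 and 8.10 CPM in controls and 11.3, 10.0 and 8.14 CPM in KI. The genotypes overlapped in each of the 7 genes. Within the pairs of control and KI embryos that share a title number, Mixl1 was lower in KI in all 3 (1.89 and 1.28, 1.94 and 1.05, and 1.24 and 0.356 CPM), and the fit with the replicate block put it at log2 -1.01 ± 0.61 (edgeR adjusted p = 0.347). Eomes, Mixl1, Mesp1 and Gsc were at 0.0744 to 2.09 CPM over the 6 libraries, with log2 differences from -0.91 to -0.28. Of 14 nascent mesoderm genes 4 were called higher in KI (Kdr, Hand1, Foxf1 and Tbx3) and Meox1 lower. The sums were 795.0 to 862.0 CPM in controls and 980.9 to 1099.9 CPM in KI. Of 11 streak signals and cofactors tested 2 were called higher and 1 lower (131.5 to 165.7 CPM and 209.0 to 223.3 CPM). Trophoblast markers were higher in 2 of 10 tested and extraembryonic endoderm markers in 2 of 13, with none lower. What part such cells have in the 7 genes was not tested.

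At E9.5 Evx1 was called higher in KI, 1 of 7 genes, where 14.6% of all genes were. It was at 6.79, 8.35 and 11.2 CPM in controls and 17.9, 12.8 and 10.7 CPM in KI (1.57-fold, log2 0.65 ± 0.20, edgeR adjusted p = 0.0265). The libraries of the 2 genotypes overlapped, and the call was lost without control 1 (0.0997), control 2 (0.097), KI 1 (0.102) or KI 2 (0.0515). T was at 21.9, 16.6 and 33.5 CPM in controls and 19.9, 12.0 and 11.2 CPM in KI (log2 -0.73 ± 0.34, adjusted p = 0.141). Mixl1 (log2 -1.47, adjusted p = 0.143) was called without KI 2 (0.0189). Eomes, Mesp1, Gsc and Lhx1 were not called. Of all genes, 14.9% were called lower in KI at E9.5 and 29.5% in either direction. Of 9 neuron markers tested 6 were called lower, and of the 6 node and notochord markers 1 was called higher and 2 lower. Of 10 trophoblast markers tested 5 were called higher (sums of 184.8 to 396.3 CPM in controls and 615.0 to 644.7 CPM in KI, with Tpbpa at 0 reads), and of 13 extraembryonic endoderm markers 4 higher and 1 lower (137.7 to 145.1 CPM and 310.1 to 442.4 CPM, with Cer1 at 0 reads in KI). Of 6 intermediate mesoderm markers 3 were called higher. Of 14 nascent mesoderm genes 5 were called higher (Kdr, Pdgfra, Hand1, Foxf1 and Cdx4). In the same list 4 were called lower (Tbx6, Msgn1, Mesp2 and Meox1, genes of presomitic and somitic mesoderm). Kdr, Pdgfra, Hand1 and Foxf1 had been called lower in KI at embryoid body day 4, as had Tbx6 and Msgn1. The part of any of these in the Evx1 and T values was not tested.

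From E8.5 to E9.5 Evx1, Lhx1 and T fell in both genotypes, Evx1 by 2.23 ± 0.20 on the log2 scale in controls (edgeR adjusted p = 3.85e-06) and by 1.79 ± 0.20 in KI (adjusted p = 2.08e-05), and Lhx1 by 1.38 ± 0.22 and 1.31 ± 0.22. T fell by 2.07 ± 0.34 in KI (adjusted p = 0.0019) and by 1.29 ± 0.32 in controls (adjusted p = 0.021). The T call in controls was lost without E8.5 control 1 (0.0653) or 2 (0.0517), without E9.5 control 1 (0.0715) or 2 (0.0677), and with only the control libraries fitted (0.0558). Mixl1 fell by 2.10 ± 0.72 in KI (adjusted p = 0.0311), a call lost without E8.5 KI 1 (0.118) or 2 (0.0765) or E9.5 KI 1 (0.106) or 3 (0.116). In controls Mixl1 was called with only the control libraries fitted (0.0354), without E9.5 control 3 (0.0445) and without E9.5 KI 2 (0.0478), and Eomes without E9.5 control 1 (0.0258). In all, 3 of 7 genes were called lower at E9.5 in controls, where 12.1% of all genes were, and 4 of 7 in KI, where 16.6% were; 12.2% and 15.9% were called higher. Markers of other cells changed between the stages too. In controls, 6 of 10 trophoblast markers tested (sums of 623.0 to 770.9 CPM at E8.5 and 184.8 to 396.3 CPM at E9.5), 8 of 13 extraembryonic endoderm markers (240.5 to 606.2 and 137.7 to 145.1 CPM), 8 of 14 nascent mesoderm genes (795.0 to 862.0 and 653.8 to 675.3 CPM) and 4 of 6 intermediate mesoderm markers (70.5 to 82.2 and 47.7 to 60.2 CPM) were called lower, and 6 of 9 neuron markers higher (77.1 to 87.2 and 228.5 to 323.3 CPM). In KI, 2 of the 10 trophoblast markers, 2 of the 13 endoderm markers, 8 of the 14 nascent mesoderm genes (980.9 to 1099.9 and 838.2 to 920.1 CPM) and 1 of the 6 intermediate mesoderm markers were called lower, 3 of the last were called higher, and of the neuron markers 4 were higher and 1 lower (87.1 to 95.7 and 85.2 to 95.9 CPM). Of 11 streak signals and cofactors 5 were called lower in controls and 8 in KI, and 1 higher in each. The part of these cells in the fall of Evx1, Lhx1 and T was not tested. The change did not differ between genotypes in any of the 7 genes by edgeR, DESeq2 or an unadjusted p under 0.05, where 6.63% of all genes were called (1024 genes, and 1547 with the replicate block).

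**Figure D4:**
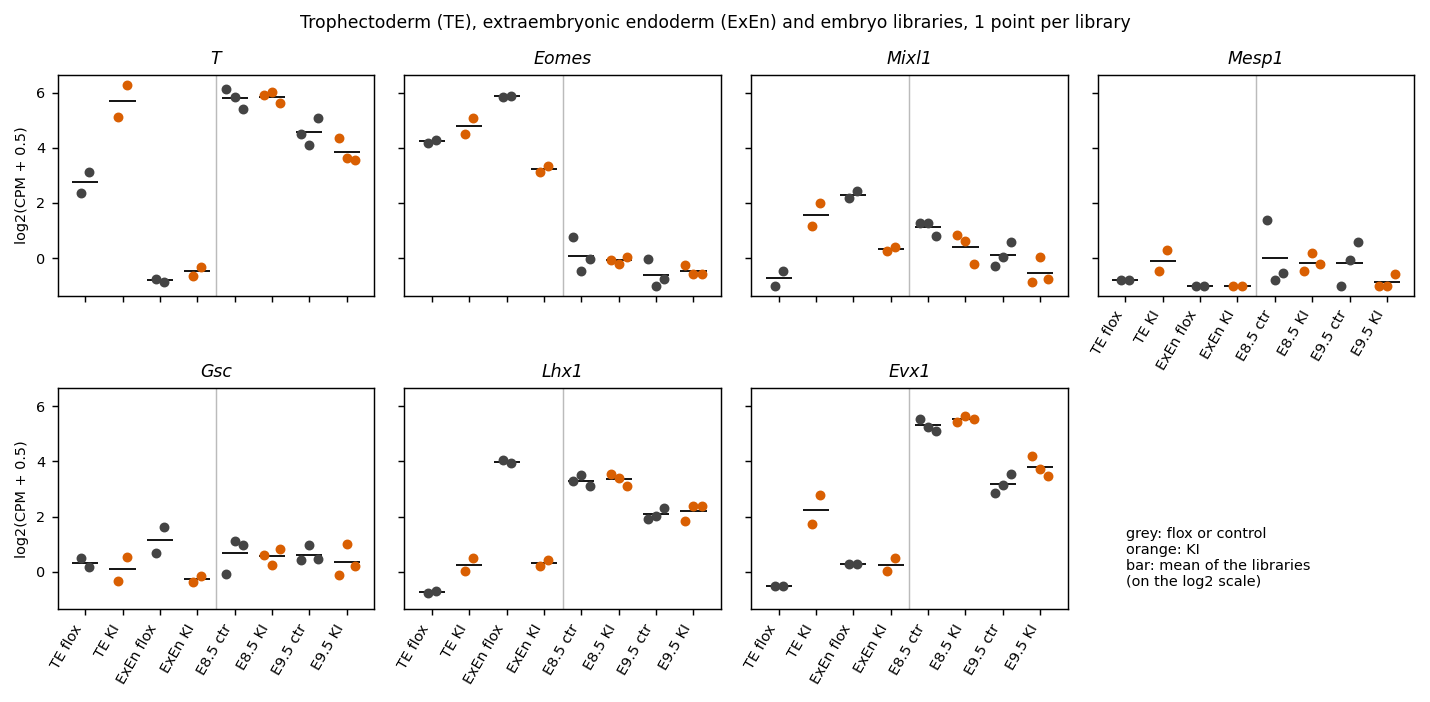
Level of each gene as log2(CPM + 0.5) in trophectoderm (TE), extraembryonic endoderm (ExEn) and embryo libraries, with 1 point per library (grey flox or control, orange KI) and a bar at the mean on that scale. KI points lie above flox in TE for T, Mixl1, Lhx1 and Evx1 and below flox in ExEn for Eomes, Mixl1 and Lhx1, while embryo points of the 2 genotypes overlap in most genes.

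**Figure D5:**
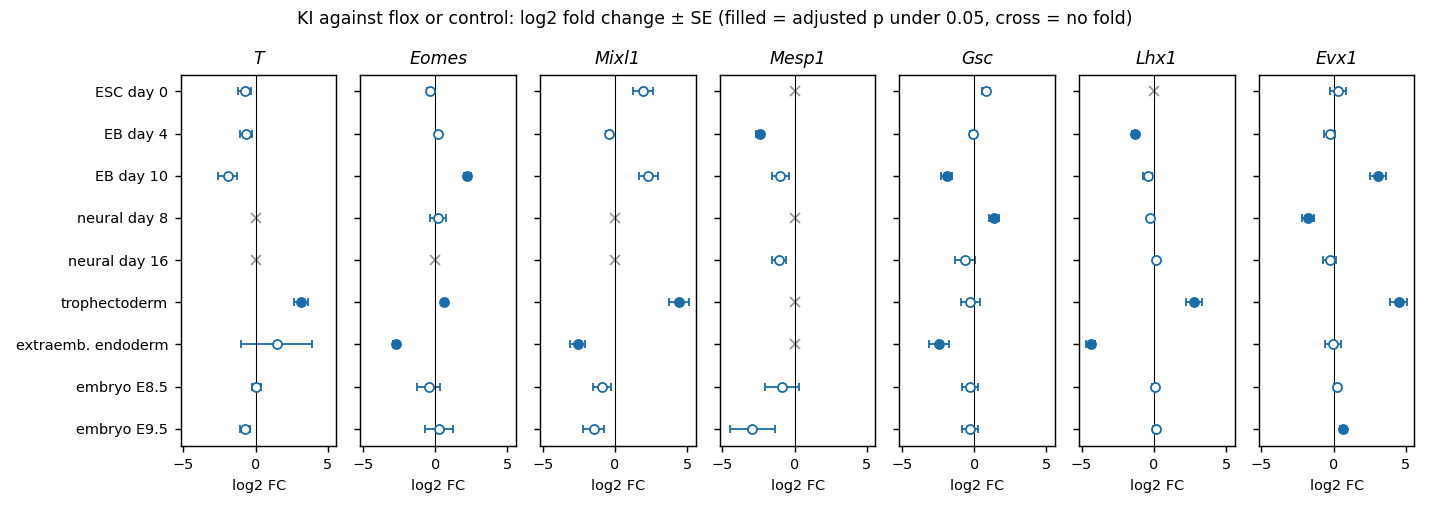
Log2 fold change of KI over flox (cultures) or control (embryos) with bars of 1 SE, by gene and stage; filled points have an edgeR adjusted p under 0.05, and a cross stands for a gene that was not tested or has 3 reads or fewer in both groups. Eomes, Mixl1 and Lhx1 have filled points on both sides of 0, with TE to the right and ExEn to the left.

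The patterns of the 7 genes over the 18 group means were compared by Pearson's r of log2(CPM + 0.5), as a description over groups, some of which share kits, libraries' days and depth. The groups mix libraries labelled total RNA (embryo, trophectoderm and endoderm) with the others, and the part of this in r was not tested. Mixl1 and Gsc were most alike (r = 0.92), followed by Mixl1 and Mesp1 (0.89), Mesp1 and Gsc (0.86) and T and Evx1 (0.85). Lhx1 had r between -0.21 and 0.40 with the others. By Spearman's rho, Mixl1 and Gsc were at 0.67, Mixl1 and Mesp1 at 0.38 and Mesp1 and Gsc at 0.19, while T and Evx1 were at 0.81. The ranks of the groups were thus less alike than the levels for the pairs among Mixl1, Mesp1 and Gsc, and about as alike for T and Evx1.

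Among 15873 genes with at least 1 CPM in 4 libraries, the gene most like Evx1 was its overlapping partner Evx1os (r = 0.970), and the gene most like Lhx1 was Lhx1os (r = 0.910, rho = 0.962), which came after Trim36 with a pseudocount of 1 CPM (0.896 and 0.917). Eomes was most like Slc7a7 (r = 0.925, rho = 0.940), T like Snora44 (r = 0.895, rho = 0.897) and Mesp1 like A930007I19Rik (r = 0.900, rho = 0.377). By r, Mixl1 and Gsc were each the gene most like the other (r = 0.924, rho = 0.674); by rho, Gsc ranked 389 for Mixl1 and Mixl1 ranked 1472 for Gsc.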

How the data were processed

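RNA was measured by sequencing in 37 libraries of 18 groups, of 100 samples in the series; the other 63 samples were not analysed here. The deposited tables give, per the file headers, a read count and an RPKM for each of 29082 RefSeq transcripts. Per the submitters' processing notes, STAR and Bowtie2 are among the tools and mm9 is the build; the role of each tool and the counter are not given in the sources used here. Libraries were poly(A) purified per the labels' protocols, although embryo, trophectoderm and endoderm libraries are labelled total RNA, and no test mixes the 2 kinds. Of the transcripts, 28436 were matched to a gene and 646 were not. Keeping 1 transcript per gene kept a median of 71.8% of reads. Tables held 25419181 to 83946108 reads.

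Counts as deposited were tested with edgeR 4.0.16 in R 4.3.3 (TMM, filterByExpr with a minimum of 10 reads, robust quasi-likelihood), separately for embryoid bodies, neural cultures, trophectoderm with endoderm, and embryos, and SE was taken from the F statistic. Alternatives were DESeq2 1.42.0, its size factors, no filter, counts summed over transcripts, only the libraries compared, a replicate block and leaving out each library. Where both groups held 3 reads or fewer, no fold is given. Ratios of few reads carry exact 95% counting intervals. Deposited RPKM were used to compare levels between genes and were not tested. Python 3.11.15 and matplotlib 3.10.9 drew the figures.

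KI clones are the same line at every day, so their numbers pair the libraries (correlation of deviations from the group mean 0.092 to 0.236 in embryoid bodies, 0.184 in neural and 0.183 in trophectoderm and endoderm cultures). Those of flox libraries (0.034 and 0.001) and of E9.5 embryos (-0.02 to 0.117) do not. At E8.5 the title numbers paired control and KI embryos, with 0.22, 0.261 and 0.103.

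The 7 genes and the lists (streak signals and cofactors, nascent mesoderm, and markers of pluripotent cells, extraembryonic endoderm, trophoblast, node and notochord, intermediate mesoderm and neurons) were chosen with earlier results of these data known. All 7 genes were considered in each comparison, although some comparisons give values for only some of them. At most the 4 called genes with the largest change per list were given values. Levels of Nodal and Wnt3 at day 4, which were not called, were added after their values were seen. For likeness, the 3 most similar genes per gene were computed, and the first is named, with the second where a pseudocount of 1 CPM puts it first.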

Additional observations from a re-analysis of the deposited data

Results flagged for a closer look

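Eomes and Evx1 differed between genotypes in how they changed from embryoid body day 4 to day 10. The interaction was 2.01 (log2) for Eomes (edgeR adjusted p = 0.0101) and 3.35 for Evx1 (adjusted p = 0.0465). In both KI clones both genes were above the flox library at day 10, while at day 4 the Evx1 values of KI were below it. Neither call held in every setting tried: Eomes was at 0.057 without day 4 clone 27 and 0.0634 without clone 48, and Evx1 reached 0.167 without day 10 clone 27.

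The KI effect differed between trophectoderm and extraembryonic endoderm cultures in Eomes (log2 3.37, edgeR adjusted p = 3.6e-07), Mixl1 (6.99, adjusted p = 2.98e-05), Lhx1 (7.17, adjusted p = 9.52e-07) and Evx1 (4.57, adjusted p = 0.000627). The first 3 genes were higher in KI in trophectoderm and lower in KI in extraembryonic endoderm, in every library of each culture. Evx1 was higher in KI in trophectoderm and was not called in extraembryonic endoderm. The sizes for Mixl1, Lhx1 and Evx1 are uncertain, since flox trophectoderm held 0 and 6, 2 and 3, and 5 and 5 reads of them.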

How the results depend on the processing

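Of 152 tests of the 7 genes, 76 were called, and 54 of these were called under every alternative. The alternatives other than leaving out a library ended a call 11 times, added one 12 times and reversed no direction. Leaving out a library ended a call 53 times, added one 31 times and reversed a direction 45 times, in 27 tests that were not called; the cause was not tested. One flox library per embryoid body day leaves few degrees of freedom, and genes near 3 reads cannot be compared at this depth.

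Counts of all called genes moved most in the embryoid body tests. DESeq2 called 777 genes averaged over days, against 121. Leaving out 1 library gave 4974 to 10032 genes for day 4 against day 0 in KI, 438 to 4880 for KI against flox at day 0, 159 to 4228 at day 4, 636 to 4952 at day 10, 108 to 4184 and 83 to 4176 for the interactions and 26 to 332 averaged. It gave 1896 to 3553 at neural day 8, 3621 to 6038 for the neural interaction, 3641 to 5940 in extraembryonic endoderm, 363 to 980 at E8.5 and 607 to 1175 for the embryo interaction.

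The replicate block changed the count at E8.5 (1304 genes, against 843) and for the embryo interaction (1547, against 1024). At E9.5, where the numbers do not pair the embryos, it ended the calls of Evx1 (adjusted p = 0.0831) and of the Mixl1 change in KI (0.0582). Besides these and the Mixl1, Lhx1 and Evx1 calls given with the results, the block changed no other call.

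Without 1 library, log2 differences that were not called spanned 0 as follows. In ESCs Evx1 ran from -0.50 to 0.83. The interaction of day 4 and day 0 ran from -0.39 to 0.83 for T and -1.09 to 0.24 for Evx1. Averaged over days, Eomes ran from -0.07 to 0.96, Mixl1 from -0.08 to 2.12, Gsc from -0.62 to 0.21 and Evx1 from -0.03 to 1.55. In neural cultures Eomes at day 8 ran from -0.32 to 0.92, Evx1 at day 16 from -1.16 to 0.32 and the Evx1 change in KI from -0.81 to 0.62. In trophectoderm Gsc ran from -1.34 to 0.32, in extraembryonic endoderm Evx1 from -0.52 to 0.31, and between these cultures in KI Gsc from -0.25 to 1.40 and Lhx1 from -0.59 to 0.21. At E8.5 T ran from -0.13 to 0.22, Eomes from -0.89 to 0.36, Mesp1 from -1.47 to 1.61, Gsc from -0.68 to 0.04 and Lhx1 from -0.05 to 0.19. At E9.5 Eomes ran from -0.35 to 2.31 and Gsc from -0.98 to 0.02. Between stages, Mesp1 ran from -1.81 to 1.75 and Gsc from -0.66 to 0.06 in controls, and Gsc from -0.96 to 0.04 in KI. The embryo interaction ran from -0.10 to 2.78 for Eomes, -0.69 to 0.37 for Gsc and -0.05 to 0.25 for Lhx1.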

Other observations

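Small gene counts (nonzero and up to 20 reads) were even numbers in 40.7% to 43.6% of cases in embryoid body and neural libraries. In embryo, trophectoderm and extraembryonic endoderm libraries they were even in 64.3% to 69.0% of cases. What sets this apart was not tested, and no test mixes the 2 kinds of library.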
